A study of Oryza sativa Japonica Group with 4 samples.

Results

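Wide domains of lysine crotonylation were examined in the chromatin of rice seedlings. The domains were chosen by their width alone: a region of the deposited list of lysine crotonylation (Kcr) was called wide when its end minus its start exceeded 2000 bp. This limit was met by 1028 of the 10923 Kcr regions, or 9.41%, and the other 9895 regions of at most 2000 bp are called narrower regions here. The mark was mapped by ChIP-seq, in which antibody-bound chromatin fragments are sequenced, in leaves and some stem of seedlings of Nipponbare, a japonica cultivar, germinated for 72 h and taken at 2 weeks. An antibody that recognises crotonyllysine in any protein (pan-Kcr) was used for 2 libraries, and an antibody against crotonylated lysine 14 of histone H3 (H3K14cr) for the other 2. All 4 libraries came from the same cultivar, tissue and stage, and no treatment or mutant is named in the labels. One list of regions for both replicates of each mark was at hand, without a score or read number, so the depth is unknown and no region has a spread between replicates.

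Crotonylation is an acyl modification in which a crotonyl group, donated by crotonyl-CoA, is attached to the amino group of a lysine side chain. In mammals it is written by acetyltransferases such as p300, bound by proteins with a YEATS domain and removed by some histone deacetylases, and it is found at active promoters and enhancers. H3K14 lies in the flexible tail of histone H3 and can carry acetylation as well, so a lysine with one acyl group cannot hold the other at the same time. Genes were not analysed here, and domains are given by position.

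The 1028 wide domains formed the upper tail of a continuous distribution of widths. Their median width was 2340 bp (interquartile range 2142 to 2709 bp, widest 7023 bp), and that of narrower regions was 1167 bp (1002 to 1399 bp, narrowest 355 bp). These widths chose the members and are a description. Wide domains made up 17.9% of all bases in the Kcr list, namely 2.62 Mb, against 12.04 Mb in narrower regions. Most wide domains lay close to the limit, since 635 of them, or 61.8%, were at most 2500 bp wide and 232 more were at most 3000 bp. Only 21 were between 4000 and 5000 bp and 13 were over 5000 bp. The distribution had no break at the limit. The 5 members just inside it were 2001 to 2003 bp wide and the 5 regions just outside it were 1997 to 2000 bp wide. All 10 overlapped H3K14cr, over 49.2 to 100% of their bases among the 5 inside and 73.5 to 98.9% among the 5 outside. Such overlap was seen in 83.4% of all wide domains, 78.6% of the regions of 1647 to 2000 bp and 63.9% of all Kcr regions.

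**Figure D1:**
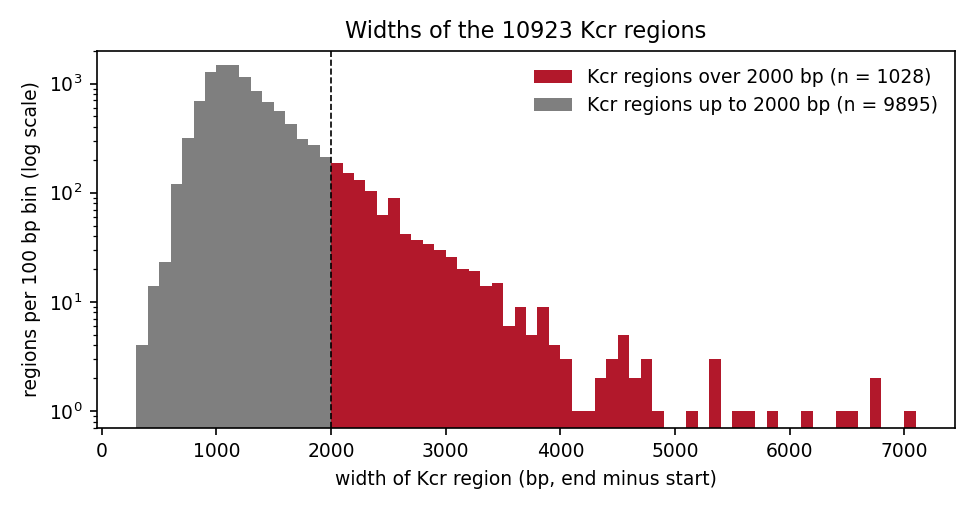
Number of Kcr regions in bins of 100 bp of width (x axis, bp; y axis, log scale), with the 1028 wide domains in red and the 9895 narrower regions in grey. The counts fall steadily across the dashed limit at 2000 bp, and the 13 domains over 5000 bp stand in a sparse tail.

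Wide Kcr domains were more often marked by H3K14cr than narrower Kcr regions were. An H3K14cr region overlapped 857 of the 1028 wide domains by at least 1 bp, or 83.4% (95% Wilson interval 81.0 to 85.5%), against 6126 of 9895 narrower regions, or 61.9% (60.9 to 62.9%). Over all Kcr regions the share was 63.9%. The share was higher for wide domains on 11 of 12 chromosomes. The Wilson intervals here and below cover counting error only. No test was made between the classes, since width itself chose the members and the regions of a list are not replicates.

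A wide region meets another list more easily than a narrow one, so measures other than any overlap were taken too. These are not free of width, since H3K14cr was more frequent deeper inside a region and the midpoint of a wide domain lies deeper. In wide domains it was present at 63.5% of borders 100 bp inside and at 79.0% at 1000 bp inside. At 400 bp inside it was present at 74.5% of borders of wide domains and 61.5% of those of narrower regions. Regions too narrow for this depth were left out, which left 18846 borders of narrower regions. At 900 bp inside, where only 972 borders of the widest narrower regions remained, the shares were 78.6% and 79.2%. The midpoint of the region lay in H3K14cr in 825 wide domains, or 80.3% (77.7 to 82.6%), and in 6066 narrower regions, or 61.3% (60.3 to 62.3%), beside 63.1% of all Kcr regions. Of the bases of wide domains 74.3% lay in H3K14cr, against 60.1% of the bases of narrower regions. Wide domains thereby held 1.95 Mb of the bases in both lists, or 21.2% of them. The midpoint, the share of bases and any overlap placed wide domains above narrower regions. The difference was 18.9 percentage points for the midpoint and 21.5 points for any overlap. Complete coverage, given below, did not place wide domains higher.

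The gain did not start at 2000 bp. When all Kcr regions were ranked by width and split into 10 groups of 1028, of which the wide domains are the first, the share of midpoints in H3K14cr fell with each step. It was 80.3% in wide domains, 76.3% (73.6 to 78.8%) in the second group of 1647 to 2000 bp, 67.1% (64.2 to 69.9%) in the fifth and 45.9% (42.9 to 49.0%) in the tenth of 831 to 948 bp. The intervals of the first 2 groups overlapped. The 643 narrowest regions were left out of this ranking. At higher limits the share with any overlap changed little, to 84.2% of the 393 domains over 2500 bp and 85.7% of the 161 over 3000 bp.

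**Figure D2:**
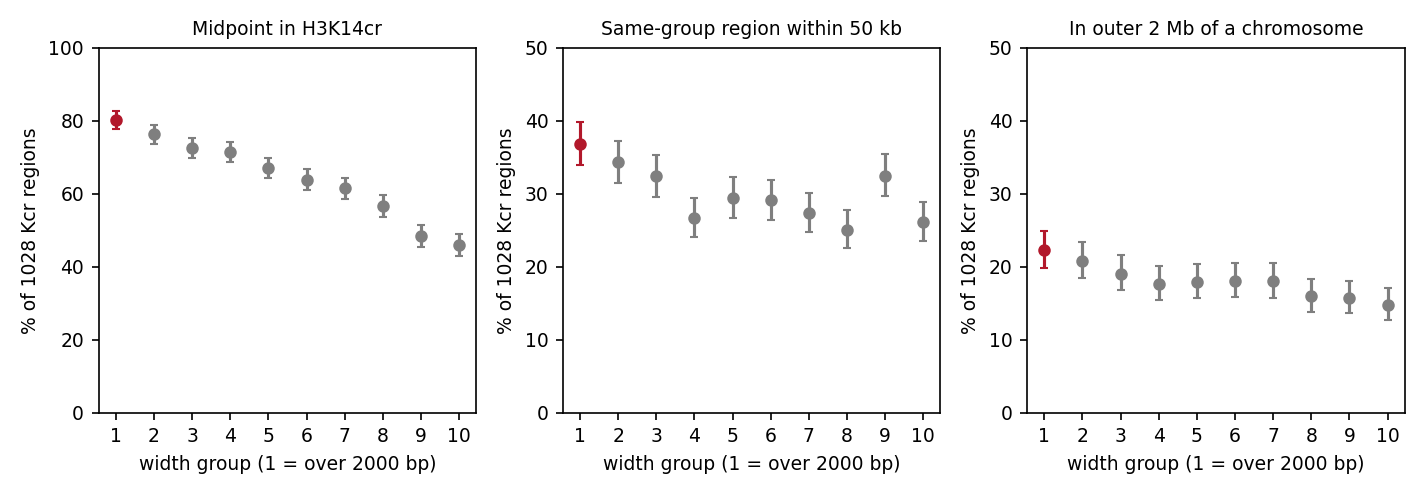
Shares (y axes, % of the 1028 Kcr regions of a group) by width group (x axes, 1 = wide domains over 2000 bp in red, 10 = regions of 831 to 948 bp), with 95% Wilson intervals as bars. The share of midpoints in H3K14cr falls from group to group. The share with a region of the same group within 50 kb and the share in the outer 2 Mb of a chromosome differ less. In each panel the intervals of groups 1 and 2 overlap.

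Wide Kcr domains were usually paired with wide H3K14cr regions. The main H3K14cr partner, the one with the most shared bases, was 2559 bp wide at the median in the 857 wide domains with a partner (interquartile range 2111 to 3366 bp) and 1400 bp in the 6126 narrower regions with one (1128 to 1886 bp). It was over 2000 bp for 686 of all 1028 wide domains, or 66.7% (63.8 to 69.5%). The same held for 1307 of all 9895 narrower regions, or 13.2% (12.6 to 13.9%), where 18.2% of all Kcr regions had such a partner. Regions without any partner are in these totals, so the shares also hold the difference in overlap given above. The order was the same on all 12 chromosomes. A partner that covers a wide domain must itself be wide, so these widths are in part set by the choice of members. Among the 832 wide domains with a single partner, the widths of the 2 regions varied together only moderately (Spearman's rho 0.41, given as a description; the pairs share the same libraries).

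Seen from the other list, the share was bounded by the number of regions, since 6368 H3K14cr regions over 2000 bp stood against 1028 wide Kcr domains. Of these H3K14cr regions 691, or 10.9% (10.1 to 11.6%), overlapped a wide Kcr domain. As a share of each list, 882 of all 18813 H3K14cr regions overlapped a wide Kcr domain, and no H3K14cr region overlapped more than 1 of them.

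Once overlapped, a wide domain was mostly covered over nearly all its length. In the 857 domains with a partner the median share of bases in H3K14cr was 97.1% (interquartile range 86.8 to 100%), and the lowest was 25.7%. In narrower regions with a partner the median was 98.2% (91.3 to 100%). Every base was covered in 262 wide domains, or 25.5% (22.9 to 28.2%), and in 2519 narrower regions, also 25.5% (24.6 to 26.3%), the share over all Kcr regions being 25.5%. Complete coverage needs an H3K14cr region at least as wide as the Kcr region, which a wide domain meets less easily, and this was not adjusted for. Complete coverage was as frequent among all regions of both classes to within counting error. Among regions with a single partner it was less frequent in wide domains, with 262 of 832, or 31.5% (28.4 to 34.7%), against 2519 of 6107 narrower regions, or 41.2% (40.02 to 42.5%), and 40.1% of all single-partner regions. Coverage was over 25 to 50% in 36 wide domains and over 50 to 75% in 100 more.

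Measured in bp, the borders of wide domains matched those of H3K14cr less closely than the borders of narrower regions did. Both borders lay within 100 bp of the partner's in 138 of the 832 wide domains with a single partner, or 16.6% (14.2 to 19.3%), against 1609 of 6107 narrower regions, or 26.3% (25.3 to 27.5%), and 25.2% over all single-partner Kcr regions. The nearer border differed by a median of 65 bp (58 to 72 bp, binomial interval of the median) in wide domains and 49 bp (47 to 51 bp) in narrower regions. The farther border differed by a median of 436.5 bp (367 to 496 bp) in wide domains and 190 bp (183 to 198 bp) in narrower regions. Both borders thus lay farther apart in wide domains, with the larger difference at the farther one. A match at 1 border within 100 bp with over 500 bp at the other was seen in 169 wide domains, or 20.3% (17.7 to 23.2%), and in 821 narrower regions, or 13.4% (12.6 to 14.3%), beside 14.3% of all. A larger region leaves more room for a difference in bp, and this was not adjusted for. Relative to size the widths were not less alike in wide domains. The median width of Kcr over that of its partner was 0.961 (0.947 to 0.972) in wide domains and 0.899 (0.891 to 0.906) in narrower regions. This ratio does not measure whether borders meet.

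Where a wide domain reached past its H3K14cr partner, it mostly did so on 1 side. Kcr ran over 500 bp past the partner on 1 side only in 145 wide domains, or 17.4% (15.0 to 20.2%), and in 151 narrower regions, or 2.47% (2.11 to 2.89%), beside 4.27% of all single-partner regions. It did so on both sides in 3 wide domains (0.0432% of all single-partner regions) and in 0 of the 6107 narrower regions. The latter allows a share of up to 0.0491% by a rule of 3 counts of the total, and the Wilson interval reaches 0.0629%. The side was not fixed. The lower-coordinate side was involved in 81 wide domains, or 9.74% of the 832, where 2.31% of all 6939 single-partner regions had such an extension. The higher-coordinate side was involved in 70, or 8.41%, beside 2.05% of all. A narrower region has less room for such an extension. The widest domain on chromosome 3 showed this form, running from 9199162 to 9204841 (5679 bp). Its H3K14cr region, 9202799 to 9204860 (2061 bp), ended close to the same border and covered 36.0% of the domain. The widest on chromosome 2, from 30379546 to 30383804 (4258 bp), held an H3K14cr region of 2646 bp, 30381071 to 30383717, which covered 62.1% of it. On chromosome 5 the widest domain, at 1155928 to 1160468 (4540 bp), was covered over 63.9% by H3K14cr at 1157465 to 1160365. The domain at 24646406 to 24650964 on chromosome 4 (4558 bp) had an H3K14cr region of 1704 bp inside it, at 24647889 to 24649593, with Kcr reaching past it on both sides. These 4 domains were the widest of their chromosomes.

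The widest domains of chromosomes 6, 7, 8, 10 and 11, like that of chromosome 9, were covered nearly throughout, whereas 60.7% was covered on chromosome 1 and 0 on chromosome 12. On chromosome 6 the domain at 21255053 to 21258971 (3918 bp) lay wholly in H3K14cr, as did that at 20791127 to 20795832 on chromosome 10 (4705 bp). Coverage was 92.4% at 29115420 to 29119777 on chromosome 7 (4357 bp), 92.0% at 25089061 to 25092532 on chromosome 8 (3471 bp) and 98.1% at 28974305 to 28978181 on chromosome 11 (3876 bp). On chromosomes 7 and 11 the H3K14cr region was the wider of the pair, at 6744 and 5818 bp. Width alone therefore did not separate domains by how much H3K14cr they held.

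A pair of H3K14cr regions lay under 25 wide domains, or 2.43% (1.65 to 3.57%), against 19 narrower regions, or 0.192% (0.123 to 0.2997%), with 0.403% over all Kcr regions. A longer region reaches across a gap to 2 H3K14cr regions more easily, and this was not adjusted for. The gap between the 2 H3K14cr regions was short, with a median of 113 bp and a range of 1 to 406 bp. The widest such domain lay at 27077691 to 27082135 on chromosome 4 (4444 bp, 79.7% covered). The next were at 29382746 to 29387048 on chromosome 7 (4302 bp, 98.9%) and at 7739017 to 7742866 on chromosome 1 (3849 bp, nearly 100%).

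No H3K14cr region overlapped the remaining 171 wide domains, or 16.6% (14.5 to 19.0%). They were about as wide as the others, with a median of 2323 bp, against 2345 bp for wide domains with H3K14cr. The nearest H3K14cr region was a median of 5814 bp away, and 5393 bp away for the 3769 narrower regions without overlap. It lay within 1 kb for 24 of the 171 domains and beyond 10 kb for 50. Absence from the H3K14cr list cannot be told apart from a signal below its threshold, because the depth is unknown.

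Around wide domains both marks were sparse before rising again. Just inside the border, 100 bp in, H3K14cr was present at 63.5% of the 2056 borders of wide domains and at 53.4% of the 19790 borders of narrower regions. At 500 bp outside it was present at 16.5% and 10.8%, and at 3 kb outside at 6.52% and 7.74%. It came back to 12.6% beside wide domains and 11.6% beside narrower regions at 6 kb. Other Kcr regions were found at 1.22% of the borders of wide domains and 1.30% of those of narrower regions at 2 kb outside. At 4 kb they were found at 4.33% and 2.63%, and at 10 kb at 7.49% and 5.05%. Very near neighbours were not more frequent beside wide domains. How far apart signals had to lie to be listed as separate regions is not known, and this bears on values close to a border. Another Kcr region lay within 2 kb of 36 wide domains, or 3.50% (2.54 to 4.81%), and of 467 narrower regions, or 4.72% (4.32 to 5.16%), beside 4.6% of all.

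**Figure D3:**
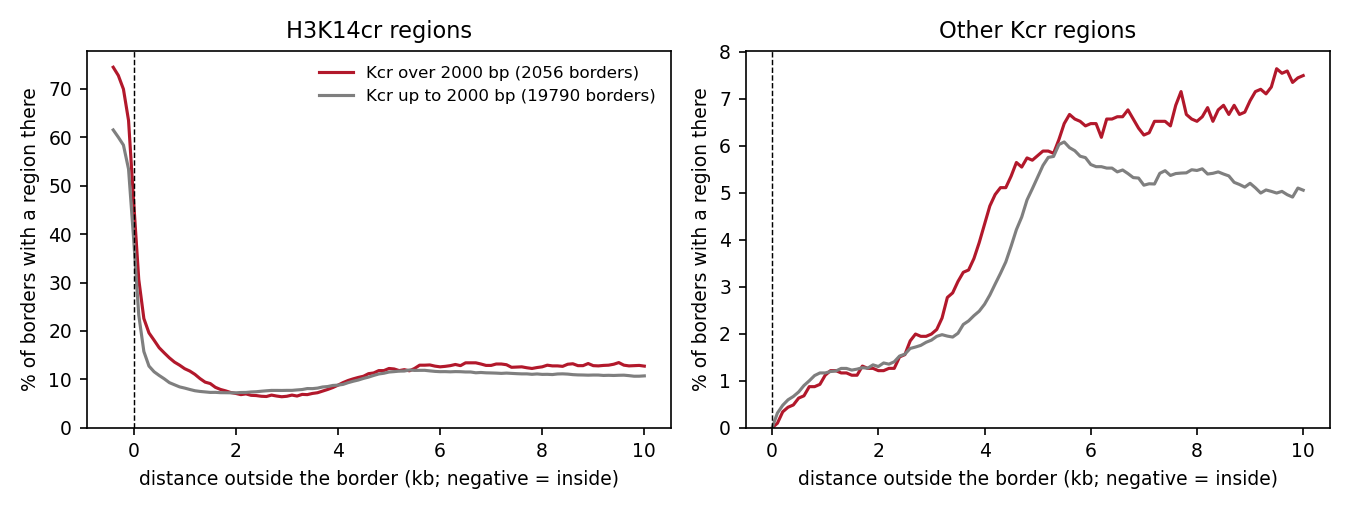
Share of borders (y axes, %) at which an H3K14cr region (left) or another Kcr region (right) was present, by distance outside the border (x axes, kb), for wide domains in red and narrower Kcr regions in grey. H3K14cr falls to 6.52% at 3 kb from wide domains and returns to 12.6% at 6 kb, and other Kcr regions are at 7.49% beside wide domains and 5.05% beside narrower regions at 10 kb.

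The distance to the nearest other Kcr region was similar in both classes. Its median was 10258 bp for wide domains (9610 to 11059 bp, binomial interval of the median; interquartile range 5806 to 18129 bp) and 10489 bp for narrower regions (10179 to 10742 bp; 5688 to 20235 bp). The intervals overlapped, and the median was larger for wide domains on 5 of 12 chromosomes. Another Kcr region lay within 50 kb of 996 wide domains, or 96.9%, and of 9414 narrower regions, or 95.1%, beside 95.3% of all. Within 50 kb there were on average 3.64 other Kcr regions and 6.63 H3K14cr regions around a wide domain, and 3.34 and 5.98 around a narrower region. Wide domains were thus not isolated, nor was their nearest neighbour closer to a degree that these numbers could show.

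Few wide domains were far from other Kcr regions. The farthest lay at 17803767 to 17806123 on chromosome 6 (2356 bp), 163810 bp from the next Kcr region, and had no H3K14cr. The second lay at 14915799 to 14917815 on chromosome 7 (2016 bp), 150751 bp away, and the third at 5512170 to 5514743 on chromosome 1 (2573 bp), 93900 bp away. H3K14cr covered 76.2% of the second and 98.0% of the third. Isolation from Kcr and overlap with H3K14cr therefore occurred together in these last 2.

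Beside a wide domain the next Kcr region was more often wide too. Of the 2054 direct neighbours of wide domains 304 were wide, or 14.8% (13.3 to 16.4%). Of the 19768 direct neighbours of narrower regions 1750 were wide, or 8.85% (8.46 to 9.26%), and over all neighbours the share was 9.41%. Neighbours are not independent, since a pair of adjacent wide domains is counted from both sides. The share was higher beside wide domains on 10 of 12 chromosomes. Without chromosome 1, which had the largest share of wide regions, it was 12.9% beside wide domains and 8.36% beside narrower regions.

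At the scale of 50 kb, 379 wide domains, or 36.9% (34.0 to 39.9%), had another wide domain nearby. A wide domain lay as close to 2528 narrower regions, or 25.5% (24.7 to 26.4%), and to 26.6% of all Kcr regions. On chromosomes 5 and 6 the order was the other way, with 16.7% of wide domains and 25.6% of narrower regions on chromosome 5, and 23.0% and 23.6% on chromosome 6. Equal-sized groups of other widths were set beside wide domains for the distance to their own kind. A member of the same group lay within 50 kb of 34.3% (31.5 to 37.3%) of the second width group, 32.4% (29.6 to 35.3%) of the third and 32.5% (29.7 to 35.4%) of the ninth, with intervals that overlapped that of wide domains. In the other 6 groups, the fourth to eighth and the tenth, the share was 25.1 to 29.4% and the intervals lay below that of wide domains.

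When wide domains at most 50 kb apart were linked, 157 chains of 2 or more held 379 domains and 649 domains stood alone. Most chains were pairs (116), and 41 had 3 or more members, with 147 domains in all. The longest chain by number lay on chromosome 12 between 20610415 and 20669235, where 6 wide domains filled 51.6% of 58820 bp with only 1 narrower Kcr region among them. Its members were 2329, 5597, 6407, 5105, 7023 and 3914 bp wide in order along the chromosome. Within the chain, the gap from a member to the Kcr region that followed it was 3843 to 7590 bp. Only the first and the fourth member overlapped H3K14cr, over 83.6% and 98.5% of their bases, so that wide domains with and without H3K14cr lay side by side in 1 chain.

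A chain on chromosome 9, at 4691057 to 4732665, had the opposite content. Its 4 domains of 6751, 6114, 2129 and 6741 bp filled 52.2% of 41608 bp, with no narrower Kcr region between them. Each had its own H3K14cr region of nearly equal width, at 6809, 6273, 2112 and 6835 bp, and coverage was 100% for the 3 widest and 96.3% for the narrowest. Thus 2 chains of similar density in Kcr differed in H3K14cr. The chains on chromosomes 12 and 9 hold 7 of the 13 domains over 5000 bp, chosen here after their values were seen.

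The next longest chains by number were on chromosomes 1 and 3. On chromosome 1, 5 domains of 2233 to 6589 bp lay between 33516053 and 33587831, and all 5 overlapped H3K14cr over 60.7 to 99.8% of their bases. On chromosome 3, 5 domains of 2168 to 4022 bp lay between 5061292 and 5156310. Of these, 4 overlapped H3K14cr and the widest, at 5093097 to 5097119, did not. Chains therefore ran from complete to mostly absent H3K14cr. Without the 10 members of the chains on chromosomes 12 and 9, 36.2% of wide domains still had another within 50 kb.

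The 13 domains over 5000 bp fell on only 4 chromosomes, with 5 on chromosome 12, 3 on chromosome 9, 3 on chromosome 3 and 2 on chromosome 1. Of these, 4 on chromosome 12, 3 on chromosome 9 and 2 on chromosome 1 lay in the chains named above, so they come from few loci. H3K14cr overlapped 9 of the 13 domains and covered 4 entirely. Among the 10 widest, coverage was all or nothing in most. It was 100% in 3 on chromosome 9 and in 1 on chromosome 12 at 20531920 to 20537781 (5861 bp), and 0 in 3 of the chromosome 12 chain, which began at 20618059, 20627733 and 20654455. The other 3 were covered in part, over 60.7% at 33516053 to 33522642 on chromosome 1 (6589 bp), 51.1% at 30195681 to 30201036 on chromosome 3 (5355 bp) and the 36.0% given above for the widest of chromosome 3. Chromosome 12 held few wide domains otherwise, 33 in all. It was also the chromosome on which wide domains overlapped H3K14cr less often than narrower regions, in 60.6% (43.7 to 75.3%) of 33 domains, against 63.6% of narrower regions. Without the 6 members of its chain the share was 66.7% (47.8 to 81.4%) of 27 domains. On the other 11 chromosomes 76.8 to 90% of wide domains overlapped H3K14cr.

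The frequency of wide domains differed between chromosomes. On chromosome 1, 205 of 1518 Kcr regions were wide, or 13.5% (11.9 to 15.3%), followed by chromosome 3 with 12.6% (10.9 to 14.5%) and chromosome 2 with 11.2% (9.55 to 13.1%). These neighbours in the order had overlapping intervals. The lowest shares were 4.11% (2.89 to 5.81%) on chromosome 11, with 30 of 730, and 4.71% (3.37 to 6.54%) on chromosome 12, with 33 of 701. The remaining 7 chromosomes lay between 7.27% and 9.89%, with overlapping intervals among themselves. Per Mb, chromosome 1 had 4.74 wide domains and chromosome 11 had 1.03, while Kcr regions of any width ranged only from 25.2 per Mb on chromosome 11 to 35.7 per Mb on chromosome 3. The share of H3K14cr regions over 2000 bp ran from 30.0% on chromosome 10 to 39.0% on chromosome 4, and was 30.6% on chromosome 11. In percentage points this range was about as wide as that of Kcr, from 4.11% to 13.5%, and smaller only as a ratio. The limit also cut the lists at unlike places, with 6368 of 18813 H3K14cr regions over it and 1028 of 10923 Kcr regions. Chromosomes 1 to 4 had the highest shares in both lists, in a different order within the 4.

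Wide domains were more frequent among the Kcr regions towards the ends of chromosomes. In the outer 10% at each end 338 of 2814 Kcr regions were wide, or 12.01% (10.9 to 13.3%). In the middle 20% it was 86 of 1709, or 5.03% (4.09 to 6.17%). The share was higher in the outer part on all 12 chromosomes, by the least on chromosome 12, with 4.46% and 4.04%. On chromosome 10 none of the 95 Kcr regions in the middle 20% was wide, which by the same rule allows a share of up to 3.16%. From end to middle in steps of 5% of chromosome length the share was 12.9% (11.3 to 14.6%) in the first step, 9.79% (8.16 to 11.7%) in the fifth and 4.56% (3.32 to 6.22%) in the tenth. It stayed between 9.79% and 12.9% in the first 6 steps and declined over the last 4. Lengths were taken from the last region end on each chromosome, and centromeres lie off the middle on several rice chromosomes, so the steps do not mark the same structures everywhere.

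**Figure D4:**
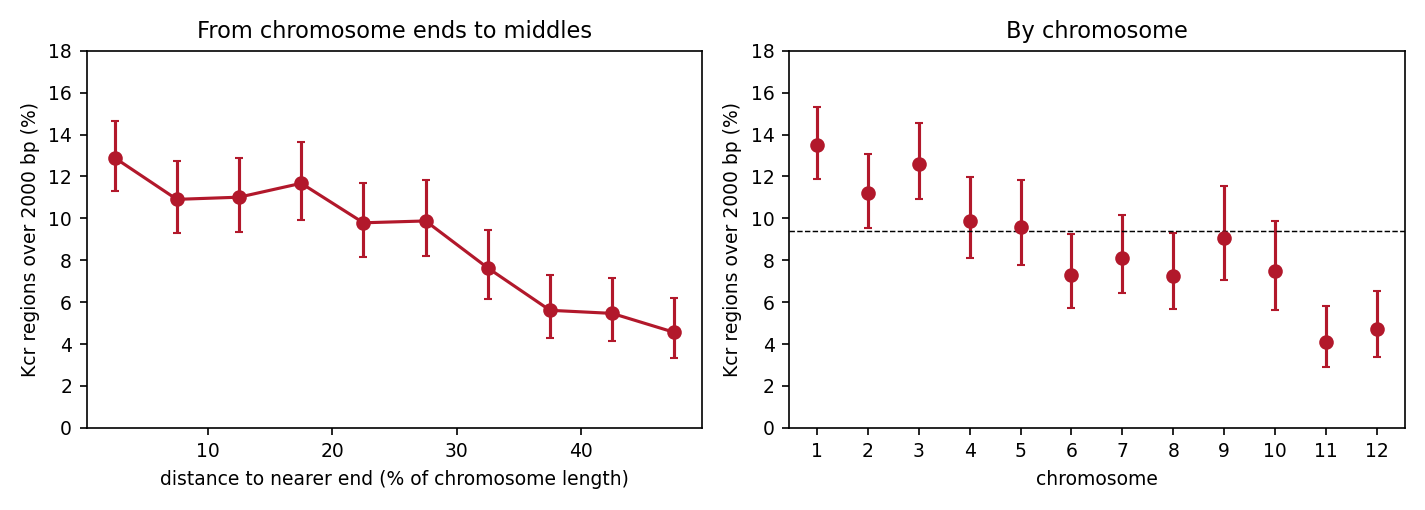
Share of Kcr regions that were wide (y axes, %, with 95% Wilson intervals as bars) by distance to the nearer chromosome end (left, % of chromosome length) and by chromosome (right, with the genome-wide 9.41% as a dashed line). The share is 12.9% at the ends and 4.56% at the middle, and ranges from 4.11% on chromosome 11 to 13.5% on chromosome 1.

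Set against narrower regions, 229 wide domains, or 22.3% (19.8 to 24.9%), and 1696 narrower regions, or 17.1% (16.4 to 17.9%), had their midpoint in the outer 2 Mb of a chromosome, beside 17.6% of all Kcr regions. The share was higher for wide domains on 11 of 12 chromosomes, the exception being chromosome 12 with 21.2% and 25.4%. The largest difference was on chromosome 7, with 39.1% of wide domains and 18.3% of narrower regions. In the second width group, of 1647 to 2000 bp, 20.8% (18.4 to 23.4%) lay in the outer 2 Mb. Its interval overlapped that of wide domains, so the larger share at the ends was not particular to them. In the H3K14cr list too the share of regions over 2000 bp was larger at the ends, with 36.1% (34.1 to 38.2%) in the first step of 5% and 27.5% (25.3 to 29.8%) in the tenth. Overlap with H3K14cr did not follow the same course. It was 77.7% of wide domains in the first step and 91.9% in the tenth, which held 37 of them, and 57.4% and 64.6% of narrower regions.

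Over 367 full windows of 1 Mb the number of wide domains was 2.65 ± 2.84 (SD over windows), with a median of 2 and a range of 0 to 16. The number of narrower regions was 26.2 ± 8.65. Windows without a wide domain numbered 96, or 26.2%. The counts of both classes varied together across windows (Spearman's rho 0.44, a description; windows of a chromosome are not independent and the smaller counts carry more counting error). The window with the most wide domains, 16 among 55 Kcr regions, ran from 2000001 to 3000000 on chromosome 3. The next were on chromosome 1, with 13 of 56 in the first window and 13 of 33 between 36000001 and 37000000. In the last of these 39.4% of the Kcr regions were wide.

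The longest stretches without a wide domain were several Mb long and not empty of Kcr. On chromosome 10 none lay between 7767782 and 14532698, where 135 narrower Kcr regions were found and 90 of them overlapped H3K14cr. A stretch on chromosome 5 between 5872442 and 11788765 held 105 narrower regions, 72 with H3K14cr, and one on chromosome 4 between 13655085 and 19269002 held 86, with 57. Consecutive wide domains were 153026 bp apart at the median, and the middle 50% of these gaps ran from 57199 to 380362 bp.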

How the data were processed

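Regions enriched for Kcr and H3K14cr were taken from the 2 deposited lists, which hold the chromosome, start and end of each region in base pairs and no other value. Per the labels, a single list stands for the pair of replicates of a mark, and 1 label spells H3K14cr as K3K14cr; its antibody field was followed. Bowtie is the aligner named, per the submitters' processing notes. Its version, the genome build, the peak caller and its threshold, and any use of a mock precipitation are not given in the sources. Whether starts count from 0 or 1 is not known, so positions may be off by 1 bp. No source ties the gene table at hand to the build of the lists, so its positions were not used.

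Overlaps were computed with Python 3.11.15, pandas 2.3.3 and numpy 2.4.6, and the functions were checked on simulated lists. Distances run from edge to edge. Shares have 95% Wilson intervals and medians binomial intervals. The members, lists and comparisons were chosen with earlier results of these data known. Regions named are the 10 widest, the widest of each chromosome, the 3 widest with none or all of their bases in H3K14cr, the 5 on either side of the limit, the 3 longest chains, the 3 most isolated, the 3 with the most H3K14cr regions and the 3 richest windows. The chain on chromosome 9, the extremes and the gaps were named after their values were seen.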

Additional observations from a re-analysis of the deposited data

How the results depend on the processing

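No paired analysis was possible because the replicates of a mark share a single list, so no replicate could be left out either. Of 64 alternatives run on 9 results, 35 stayed within the interval of the value reported and 29 did not. The midpoint criterion and the chains left out were chosen after seeing the data. For the share of bases in H3K14cr, the interval used (71.6 to 76.9%) treated the share as a count over 1028 regions. It is not a counting interval of bases, so its alternatives, all of which fell within it, say little on stability. With wide limits of 1500, 2500 and 3000 bp, direct neighbours of wide domains were wide in 32.8%, 8.92% and 6.21%, another wide domain lay within 50 kb of 65.5%, 25.4% and 16.8%, the highest share per chromosome was 32.3%, 6.52% and 2.70% and the lowest 14.9%, 1.79% and 0.597%. The extremes moved with the limit, to chromosome 3 for the highest at 1500 bp and chromosome 6 for the lowest at 2500 and 3000 bp. These shares depend on how many regions a limit admits. Any overlap with H3K14cr was 79.1% at 1500 bp and 85.7% at 3000 bp, both borders matched in 13.3% at 2500 bp and 11.6% at 3000 bp, and the median distance to the nearest Kcr region was 9210 bp at 3000 bp. H3K14cr was found in 79.9% of wide domains with 50% of the region covered, 74.3% with 50% reciprocal overlap, 75% with the wider 50% of H3K14cr regions and 80.3% by midpoint, each above narrower regions. From midpoint to midpoint the nearest Kcr region was 12292 bp from wide domains and 11777 bp from narrower ones, which turns the order of the classes round; a midpoint distance holds part of the width. Another wide domain lay within 20 kb of 19.7% and within 100 kb of 58.0%. The outer 1 Mb held 12.5% and the outer 5 Mb 45.9%. Borders matched within 50 bp in 5.65% and within 200 bp in 33.4%. With each chromosome left out in turn, wide neighbours ranged from 12.9% to 15.2%. Merging regions up to 200 bp apart gave 1057 wide domains. Alternatives that need genes were not run.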
